A study of Mus musculus with 10 samples.

Results

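Potassium channels that hold the resting potential of heart muscle cells, or that open when cell energy runs low or a nerve slows the heart, were followed in mouse hearts after 1 week of pressure overload. The set was chosen by gene symbol, with earlier results of these data known, and has 9 genes of the 20692 in the count table. Kcnj2 and Kcnj12 encode pore subunits of the classical inward rectifier (Kir2.1 and Kir2.2), Kcnj3 and Kcnj5 those of the acetylcholine-activated channel (Kir3.1 and Kir3.4), Kcnj11 and Kcnj8 the pores of ATP-sensitive (KATP) channels (Kir6.2 and Kir6.1), Abcc8 and Abcc9 the sulfonylurea receptors that complete those channels (SUR1 and SUR2), and Kcnk3 a leak channel of the K2P family (TASK-1). All 9 had enough counts to be tested. The data are polyadenylated RNA from the ventricular apex of wild-type FVB/NJ mice, an inbred laboratory strain, aged 9 weeks and all labelled female. Of 10 libraries, 5 came from sham-operated mice and 5 from mice 1 week after TAC (transverse aortic constriction), in which a ligature on the aorta raises the load on the left ventricle. Both groups are described as wild type, and the labels name the tissue whole heart in one place and ventricular apex in another. The titles of the sham libraries do not name the operation, and their group comes from the design text.

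Inward rectifier channels pass potassium into a cell more readily than out of it, so they fix the resting potential near the potassium equilibrium and take part in late repolarization. Kir2 channels carry this current in ventricular muscle. Kir3 channels open when the beta-gamma arm of an inhibitory G protein binds them after acetylcholine or adenosine reaches its receptor, and they are best known in atria and pacemaker tissue. KATP channels join a Kir6 pore to a sulfonylurea receptor and close when ATP is high. Kir6.2 is the pore of heart muscle cells, while Kir6.1 with SUR2 is typical of vascular smooth muscle and pericytes, and SUR1 is known in mouse atrium and pancreatic beta cells. K2P channels such as TASK-1 conduct a background leak current.

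The total was between 7410967 and 10126574 counts per library, and 12001 genes were tested. The quasi-likelihood test of edgeR, adjusted over all tested genes by the Benjamini-Hochberg method with a threshold of 0.05, placed 17.0% of them lower and 18.8% higher in TAC. This is the test meant wherever a gene has an adjusted p. The middle of all tested genes lay at 0.003 on the log2 scale. Levels are CPM, counts scaled per library by its total and its TMM factor, and each fold change is the TAC level over the sham level on the log2 scale, with its standard error (SE). The library labelled TAC replicate 1 did not match its female label, with 14 counts of Xist against 1042 to 1561 in the other libraries and 155 counts of the Y-linked gene Ddx3y against 0. Stated alignment tools differ between the groups (TopHat2 2.0.10 with Bowtie2 for sham, TopHat 1.3.0 with Bowtie for TAC). TopHat without a version is named for sham too. An effect of processing and an effect of the operation therefore cannot be told apart. The 14 cardiomyocyte markers, which include Tnnt2, Tnni3 and Myh6, fell in 11 cases, and their sum was 125436 to 144143 CPM in sham against 85855 to 117189 CPM in TAC. In whole tissue, fewer cells of a type and less RNA per cell cannot be told apart.

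The RefSeq promoters (build GRCm38.p6, 250 bases before to 50 bases after the listed start) of 5 of the genes are shown 5′ to 3′, since they set genes that fell (Kcnj2, Kcnj3, Kcnj5) beside the neighbours on chromosome 6 that did not pass (Kcnj8, Abcc9). Capitals mark matches to 7 short motifs searched on both strands, and positions are those of a match's first base from the start.
Kcnj2 (chr11:111065914-111066213, plus strand): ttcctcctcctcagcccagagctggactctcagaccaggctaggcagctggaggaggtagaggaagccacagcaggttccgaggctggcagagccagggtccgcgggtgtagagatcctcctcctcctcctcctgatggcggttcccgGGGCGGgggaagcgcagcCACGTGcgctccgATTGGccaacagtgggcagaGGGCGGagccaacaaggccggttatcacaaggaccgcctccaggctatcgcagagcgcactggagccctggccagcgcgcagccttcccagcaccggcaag
Kcnj3 (chr2:55435720-55436019, plus strand): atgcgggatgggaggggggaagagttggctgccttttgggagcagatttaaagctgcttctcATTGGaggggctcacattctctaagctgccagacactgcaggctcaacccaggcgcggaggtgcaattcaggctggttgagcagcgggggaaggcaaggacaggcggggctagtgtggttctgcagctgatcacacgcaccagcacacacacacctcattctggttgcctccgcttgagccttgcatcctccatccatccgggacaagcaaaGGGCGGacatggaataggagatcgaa
Kcnj5 (chr9:32344295-32344594, minus strand): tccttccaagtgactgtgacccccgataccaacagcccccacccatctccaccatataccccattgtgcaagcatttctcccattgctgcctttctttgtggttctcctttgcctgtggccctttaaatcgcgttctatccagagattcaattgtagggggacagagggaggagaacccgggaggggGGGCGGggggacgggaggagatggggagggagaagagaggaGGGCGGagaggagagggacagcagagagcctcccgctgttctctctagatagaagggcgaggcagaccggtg
Kcnj8 (chr6:142571565-142571864, minus strand): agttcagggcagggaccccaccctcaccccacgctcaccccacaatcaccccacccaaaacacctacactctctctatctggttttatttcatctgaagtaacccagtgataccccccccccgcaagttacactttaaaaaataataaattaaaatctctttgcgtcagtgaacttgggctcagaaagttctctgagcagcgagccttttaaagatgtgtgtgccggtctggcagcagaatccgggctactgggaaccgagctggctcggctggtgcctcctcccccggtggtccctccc
Abcc9 (chr6:142702225-142702524, minus strand): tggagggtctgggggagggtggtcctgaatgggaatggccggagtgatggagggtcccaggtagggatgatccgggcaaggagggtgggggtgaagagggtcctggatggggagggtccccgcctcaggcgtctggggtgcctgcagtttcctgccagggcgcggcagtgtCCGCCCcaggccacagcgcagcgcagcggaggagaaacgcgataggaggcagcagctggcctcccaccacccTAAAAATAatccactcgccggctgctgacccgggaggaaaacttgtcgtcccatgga
Promoter elements searched were the TATA box, spelled TATAAA, and the GC box, spelled GGGCGG. The CCAAT box was searched by the letters of its name. The E-box was taken as CACGTG. A core form of the MEF2 site was taken as TAAAAATA. The GATA site was taken as AGATAA. The core site of estrogen-related receptors was taken as AGGTCA. No match overlapped another. The Kcnj2 window holds 2 GC boxes at -102 and -51 from the start, an E-box at -84 and a CCAAT box at -71. In Kcnj5 the GC boxes lie at -63 and -22, and in Kcnj3 1 lies at 25 after the start, with a CCAAT box at -188. Abcc9 has a GC box at -79 and the MEF2 core at -7, whose last base is the listed start, and Kcnj8 has no match. Over all 32851 promoters of this length, 35.7% hold the GC box, 37.4% the CCAAT box, 7.15% the E-box and 2.72% the MEF2 core. Of the 9 genes, 6 had a promoter in the table. The sixth, Kcnj12, also has no match to these motifs in its window. That window, chr11:61065554-61065853, lies inside the gene as listed by GENCODE M21 (chr11:61022564-61071131, plus strand), so the sequence before the gene's first base was not searched. The TATA box, GATA site and estrogen-related receptor core, present in 13.6%, 11.2% and 16.3% of all promoters, were in none of the 6 windows.

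Both Kir2 genes of the ventricular inward rectifier fell. Kcnj12 (ENSMUSG00000042529, chr11:61022564-61071131 in GRCm38, plus strand) was measured at 42.8, 44.5, 51.1, 60.7 and 56.2 CPM in sham replicates 1 to 5 and at 22.2, 30.2, 26.2, 29.5 and 27.7 CPM in TAC replicates 1 to 5. Every TAC library lay below every sham library. Kcnj12 had the largest fall of the 9 genes (51.1 ± 7.61 to 27.1 ± 3.19 CPM, mean ± SD, n = 5 and 5; -0.91 ± 0.11 on the log2 scale; edgeR, adjusted p = 7.86e-05). Kcnj2 (ENSMUSG00000041695, chr11:111066164-111076821, plus strand) was at 36.9, 36.6, 40.4, 32.7 and 33.2 CPM in sham and at 16.0, 20.2, 15.4, 20.9 and 30.3 CPM in TAC. The groups did not overlap here either, but TAC replicate 5 stood near the lowest sham library and well above the other TAC libraries. The log2 fold change, -0.80 ± 0.15 for Kcnj2, passed (edgeR, adjusted p = 0.00138), and 1.18% of all tested genes fell at least as far on this scale. The ratio of Kcnj2 to Kcnj12 counts within a library averaged 0.721 in sham and 0.757 in TAC. It did not differ beyond its spread (difference 0.06 on the log2 scale, exact two-sided permutation test, p = 0.794, adjusted p = 0.794 over 8 ratios). TAC replicate 5 was the only library of either group above 1, at a ratio of 1.10, and sham replicates 4 and 5 were the lowest sham libraries, at 0.539 and 0.591.

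**Figure D1:**
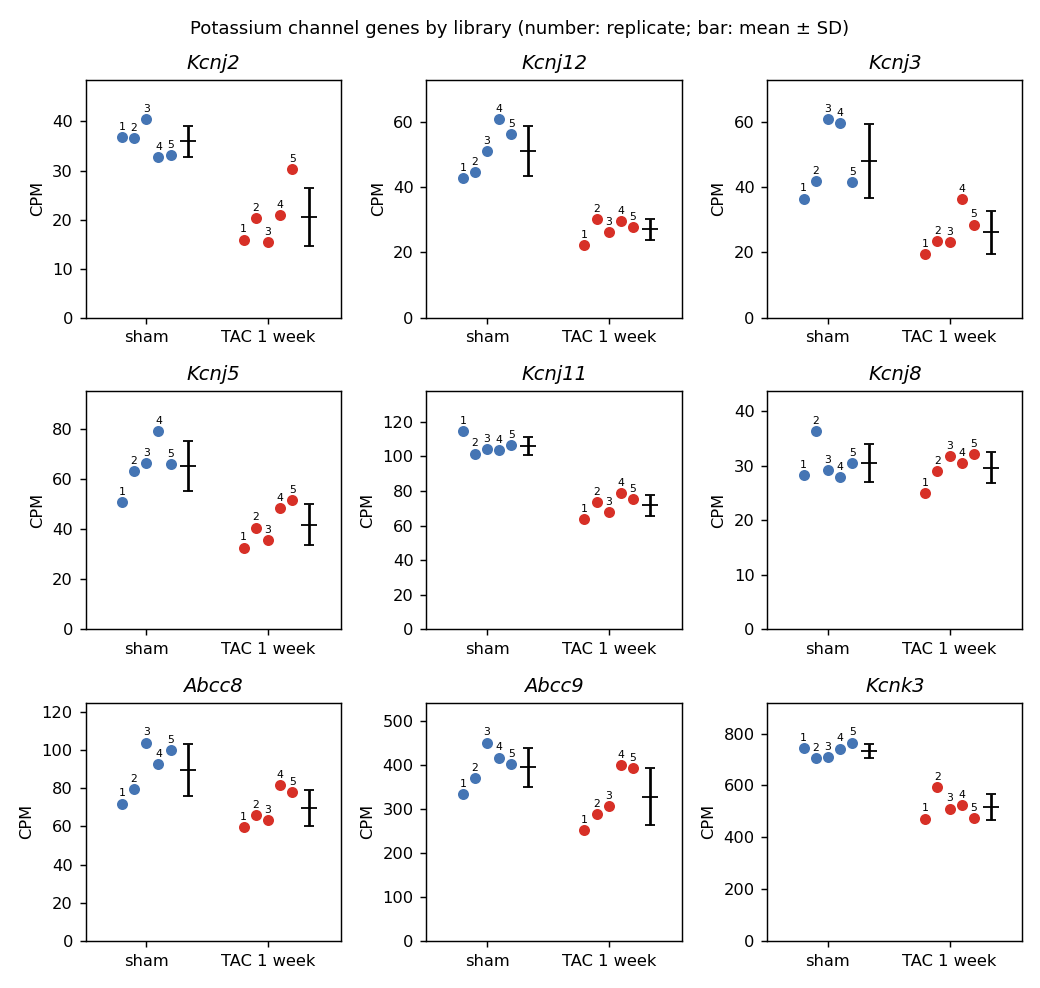
CPM (linear axes from 0) of each of the 9 genes in the 5 sham (blue) and 5 TAC (red) libraries, with replicate numbers beside the points and the mean ± SD as a bar. In Kcnj2, Kcnj12, Kcnj3, Kcnj11 and Kcnk3 all TAC points lie below all sham points, while those of Kcnj8 overlap almost fully.

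Both pore genes of the acetylcholine-activated channel fell as well. Kcnj3 (ENSMUSG00000026824, chr2:55435970-55598145, plus strand) was at 36.5, 41.7, 60.7, 59.5 and 41.4 CPM in sham and at 19.4, 23.4, 23.1, 36.3 and 28.5 CPM in TAC. The groups came close without overlapping: sham replicate 1 and TAC replicate 4 were nearly equal. Kcnj3 changed by -0.87 ± 0.18 on the log2 scale (edgeR, adjusted p = 0.00231). Kcnj5 (ENSMUSG00000032034, chr9:32314707-32344350, minus strand) was at 50.7, 63.2, 66.1, 79.0 and 65.9 CPM in sham and at 32.6, 40.5, 35.6, 48.4 and 51.6 CPM in TAC. Only TAC replicate 5 reached into the sham range, above sham replicate 1. Kcnj5, whose product pairs with that of Kcnj3 in the cardiac channel, changed by -0.64 ± 0.13 on that scale (edgeR, adjusted p = 0.00278). Kcnj3 counts were 0.736 of Kcnj5 counts in sham and 0.626 in TAC, a difference that did not pass (exact two-sided permutation test, p = 0.0952, adjusted p = 0.19). Exons of Kcnj3 overlap those of Gm26794, a gene on the opposite strand, over 1621 of 5215 bases. The libraries keep no strand and Gm26794 has no row in the table, so its reads and those of Kcnj3 cannot be told apart in that stretch. Shorter overlaps with opposite-strand genes exist for Kcnk3 (229 bases, Gm9899) and Abcc9 (158 bases, 5330439B14Rik).

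Since Kir3 channels are best known in atrium, atrial markers were read beside these genes. Myl7, the atrial regulatory light chain, was at 0.770 ± 0.0639 CPM in sham against 0.723 ± 0.152 CPM in TAC. Sln, sarcolipin of atrial muscle, was at 0.111 ± 0.110 and 0.0910 ± 0.0995 CPM. These defining markers were thus near 0 in both groups, below the filter for testing. Over all 8 markers of the atrial list the sum was 132 to 225 CPM in sham against 533 to 1255 CPM in TAC, and Nppa, a natriuretic peptide gene that also responds to load in ventricle, made up most of it (133 ± 35.8 and 741 ± 286 CPM). Of the 4 that were tested, 2 (Gpr22 and Stard10) fell, Nppa rose and Myl4 did not pass. Over all tested genes 17.0% fell and 18.8% rose, and lists with only 4 or 3 tested genes are short beside such shares. Of 3 tested markers of nodal and conduction cells, Cntn2 and Hcn4 fell, at -1.36 ± 0.25 and -0.69 ± 0.21 on the log2 scale (edgeR, adjusted p = 0.00108 and 0.0234), and Tbx18 did not pass. The whole list of 5 genes summed to 24.9 to 42.1 CPM in sham against 18.2 to 26.9 CPM in TAC, with Isl1 at 0 in all libraries. The part of these cells in the values of Kcnj3 and Kcnj5 was not tested.

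The KATP genes differed in whether they passed. Kcnj11, the pore of heart muscle cells, fell, as did Abcc8 less firmly, and Kcnj8 and Abcc9 did not pass. Between Abcc8 and Abcc9 this is a difference in passing only, at -0.36 ± 0.11 and -0.27 ± 0.12 on the log2 scale. Kcnj11 (ENSMUSG00000070561 in the table, chr7:46093953-46100764 in GRCm38 where GENCODE M21 lists the symbol as ENSMUSG00000096146, minus strand) was at 115, 102, 104, 103 and 106 CPM in sham and at 63.6, 73.5, 68.0, 78.8 and 75.2 CPM in TAC. The sham libraries were tightly grouped and all TAC libraries lay well below them. Means moved from 106 ± 5.12 to 71.8 ± 6.04 CPM (SD, n = 5 and 5), or -0.56 ± 0.06 on the log2 scale (edgeR, adjusted p = 6.30e-05). Kcnj8 (ENSMUSG00000030247, chr6:142564837-142571614, minus strand) was at 28.3, 36.3, 29.2, 27.9 and 30.4 CPM in sham and at 25.0, 28.9, 31.7, 30.5 and 32.1 CPM in TAC. Here the groups covered nearly the same range, and sham replicate 2 stood above all others. The Kcnj8 difference was -0.04 ± 0.09 on the log2 scale, with a 95% interval of -0.23 to 0.15 (edgeR, adjusted p = 0.781), so that a fall the size of that of Kcnj11 lies outside the interval. Scaled by library totals alone, and without sham replicate 2 or TAC replicate 1, the Kcnj8 value changed sign, to 0.066, 0.033 and 0.020.

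The difference between the KATP pores can be read without any library scaling. Kcnj11 counts were 4.05, 2.79, 3.57, 3.70 and 3.49 times Kcnj8 counts in sham replicates 1 to 5, and 2.54, 2.54, 2.14, 2.58 and 2.34 times in TAC replicates 1 to 5. All 5 TAC ratios lay below all 5 sham ratios. The ratio in TAC was 0.694 of that in sham (exact two-sided permutation test, p = 0.00794, the smallest that divisions of 10 libraries into 5 and 5 can give), but the adjusted p over the 8 ratios was 0.0635, which does not pass. Over 8 ratios, a ratio alone at this smallest p cannot pass, whatever its size, so the adjusted p does not decide on this difference. It was the only one of the 8 ratios with an unadjusted p under 0.05.

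The sulfonylurea receptor genes overlapped between groups. Abcc8 (ENSMUSG00000040136, chr7:46104523-46180033, minus strand) was at 72.0, 79.5, 104, 92.8 and 99.9 CPM in sham and at 59.5, 66.0, 63.3, 81.5 and 78.2 CPM in TAC. TAC replicates 4 and 5 lay within the sham range, and the other TAC libraries below it. Abcc8 changed by -0.36 ± 0.11 on the log2 scale (edgeR, adjusted p = 0.0236), and the call ended when libraries were scaled by totals alone (adjusted p = 0.0853) and without any 1 of sham replicate 3, sham replicate 5, TAC replicate 1 or TAC replicate 3 (adjusted p between 0.0513 and 0.0622). Abcc9 (ENSMUSG00000030249, chr6:142587862-142702315, minus strand) was at 335, 371, 452, 417 and 403 CPM in sham and at 253, 289, 307, 400.2 and 393 CPM in TAC. TAC replicates 1 to 3 lay below the sham range, whereas replicates 4 and 5 sat in its middle. Abcc9 differed by -0.27 ± 0.12 on the log2 scale (95% interval -0.53 to -0.003; edgeR, adjusted p = 0.108), and it passed without TAC replicate 4 (adjusted p = 0.0398). The ratio of Abcc8 to Abcc9 counts averaged 0.226 in sham and 0.215 in TAC and overlapped (exact two-sided permutation test, p = 0.27, adjusted p = 0.308). Abcc9 counts per Kcnj11 count averaged 3.74 in sham and 4.54 in TAC (exact permutation p = 0.0635, adjusted p = 0.19), and per Kcnj8 count 13.1 and 11.0 (exact permutation p = 0.135, adjusted p = 0.19). Kcnj11 counts per Abcc8 count averaged 1.21 and 1.04, which overlapped too (exact permutation p = 0.143, adjusted p = 0.19).

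Each KATP pore gene has a receptor gene as its neighbour on the same strand. In GENCODE M21, Kcnj8 starts 16.2 kb beyond the end of Abcc9 on chromosome 6, and Kcnj11 3.76 kb beyond the end of Abcc8 on chromosome 7. Within the chromosome 7 pair both genes passed with a fall, and within the chromosome 6 pair neither did, which is a difference in passing only. Across the pairs, neither the Abcc8 to Abcc9 ratio nor the Kcnj11 to Kcnj8 ratio passed (exact permutation tests, adjusted p = 0.308 and 0.0635). The groups overlapped for Abcc8 to Abcc9 (exact permutation p = 0.27). They stood apart for Kcnj11 to Kcnj8 (exact permutation p = 0.00794, the smallest possible), where the adjusted p does not decide. No test compared the pairs as wholes.

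**Figure D2:**
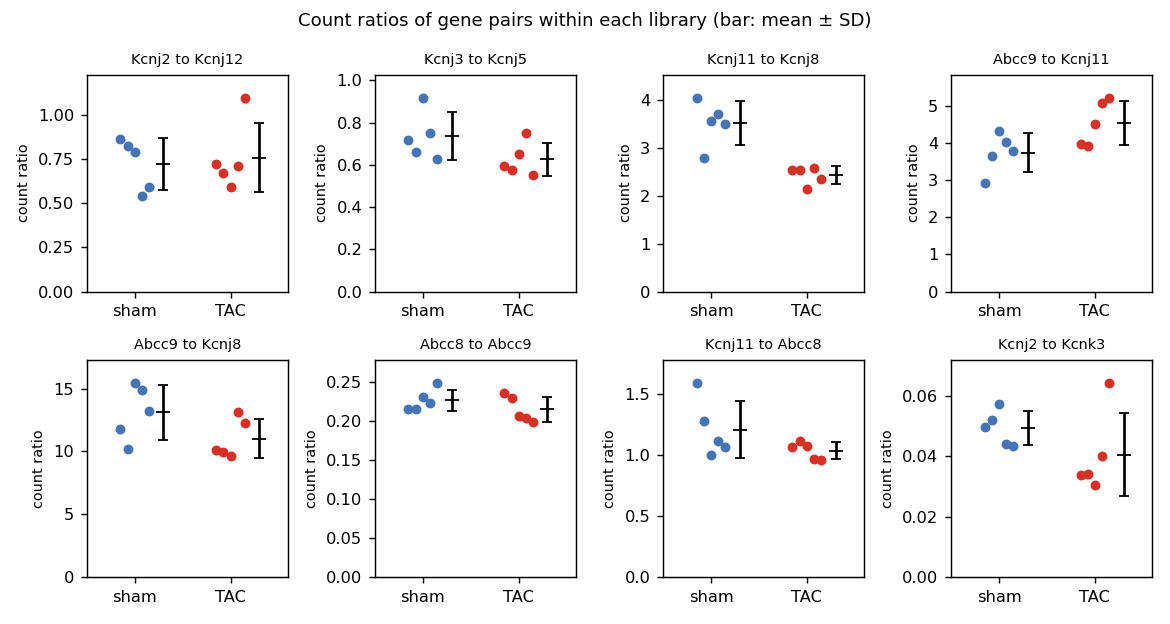
Ratio of the counts of 2 genes within each library (linear axes from 0), for the 8 pairs tested, with sham in blue, TAC in red and the mean ± SD as a bar. Only for Kcnj11 to Kcnj8 do the groups stand apart, at 2.79 to 4.05 in sham and 2.14 to 2.58 in TAC.

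Since Kir6.1 with SUR2 marks pericytes, markers of those cells were read beside Kcnj8 and Abcc9. The 9 pericyte markers summed to 879 to 999.9 CPM in sham, below the 1042 to 1122 CPM of TAC. Of them, 4 rose (Cspg4, Notch3, Pdgfrb and Ndufa4l2), 1 fell (Vtn) and 4, among them Rgs5 at 0.16 ± 0.08 on the log2 scale, did not pass. Over all tested genes 18.8% rose and 17.0% fell, so the number of these markers that fell is near the background. None of 6 smooth muscle markers passed by edgeR in either direction, with sums of 754 to 1041 CPM in sham and 662 to 919 CPM in TAC. The part of vascular cells in the Kcnj8 and Abcc9 values was not tested.

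Kcnk3, with the highest level per length of the 9 genes, fell as well. Kcnk3 (ENSMUSG00000049265, chr5:30588170-30625271, plus strand) was at 744, 706, 709, 742 and 766 CPM in sham and at 472, 595, 510.3, 524 and 473 CPM in TAC. Sham libraries differed little, and the highest TAC library, replicate 2, was still well under the lowest sham library. Means moved from 733 ± 25.5 to 515 ± 50.2 CPM (SD, n = 5 and 5), or -0.51 ± 0.07 on the log2 scale (edgeR, adjusted p = 0.000143). Kcnj2 counts were 0.0493 of Kcnk3 counts in sham and 0.0405 in TAC, which did not pass (exact two-sided permutation test, p = 0.143, adjusted p = 0.19).

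Over the set, 7 of 9 genes fell and 2 missed the threshold, against 17.0% of all tested genes that fell. The set was chosen with earlier results of these data known. In 5 of the 9 all TAC libraries lay below all sham libraries, as in 11.6% of all tested genes, and none of the 9 had all TAC libraries above sham, as 12.2% of all tested genes did. The median log2 fold change of the 9 was -0.56. Without the library labelled TAC replicate 1, 6 fell, Abcc8 being the one lost. Within the TAC group, replicates 4 and 5 were both above replicates 1 to 3 in 6 of the 9 genes (Kcnj2, Kcnj3, Kcnj5, Kcnj11, Abcc8 and Abcc9), a pattern noticed in the values and found in 12.4% of all tested genes. No label separates these libraries. The cardiomyocyte markers summed to 85855, 113895, 101337, 117189 and 107986 CPM in TAC replicates 1 to 5, and their part in this pattern was not tested.

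**Figure D3:**
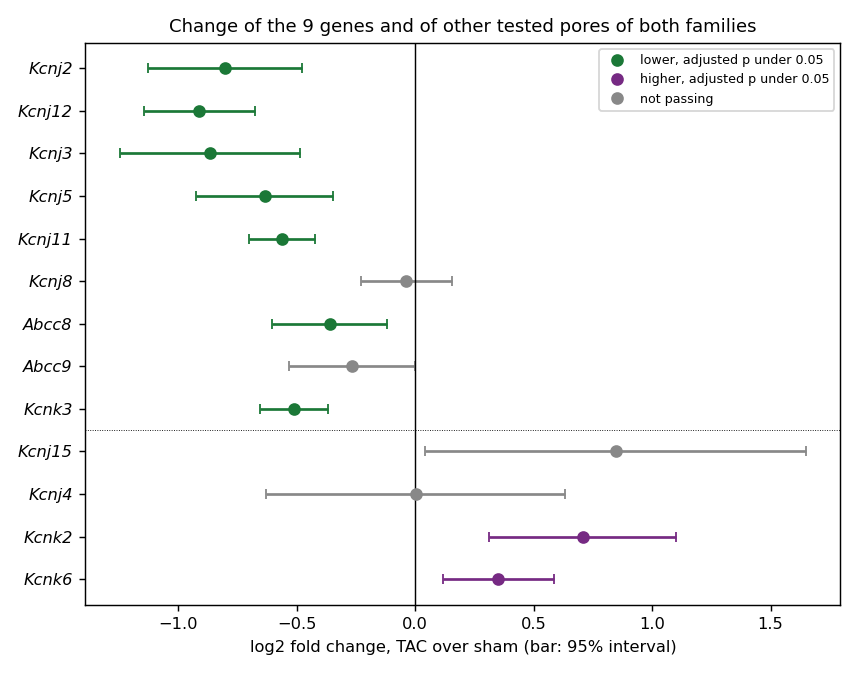
Log2 fold change of TAC over sham with its 95% interval for the 9 genes (above the dotted line) and the 4 other tested Kcnj and Kcnk genes (below it), coloured by whether the adjusted p passed. Values of the 9 run from -0.91 (Kcnj12) to -0.04 (Kcnj8), while Kcnk2 and Kcnk6 lie at 0.71 and 0.35.

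Set per length, the levels spread widely and kept much of their order. CPM per kilobase of exon (GENCODE M21) was 184 ± 6.40 for Kcnk3 in sham, 47.2 ± 5.36 for Abcc9, 28.8 ± 1.39 for Kcnj11 and 18.6 ± 2.77 for Kcnj12. Each of the first 3 stood apart from the next, with no overlap between libraries. From Kcnj12 down, every neighbour overlapped: Kcnj5 at 13.9 ± 2.15, Kcnj8 at 11.9 ± 1.35, Abcc8 at 11.1 ± 1.67, Kcnj3 at 9.20 ± 2.16 and Kcnj2 at 6.61 ± 0.577 CPM per kilobase. In TAC the first 3 places were the same, at 130 ± 12.6, 39.2 ± 7.80 and 19.5 ± 1.64 CPM per kilobase. Next was Kcnj8 at 11.6 ± 1.13, ahead of Kcnj12 at 9.87 ± 1.16, though their libraries overlapped. Kcnj3 and Kcnj2 were again lowest, at 5.02 ± 1.26 and 3.78 ± 1.10 CPM per kilobase. With the longest coding transcript as the length, a choice added after seeing the data, the sham level of Abcc8 became 18.4 in place of 11.1, so its place in the order depends on the gene model.

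**Figure D4:**
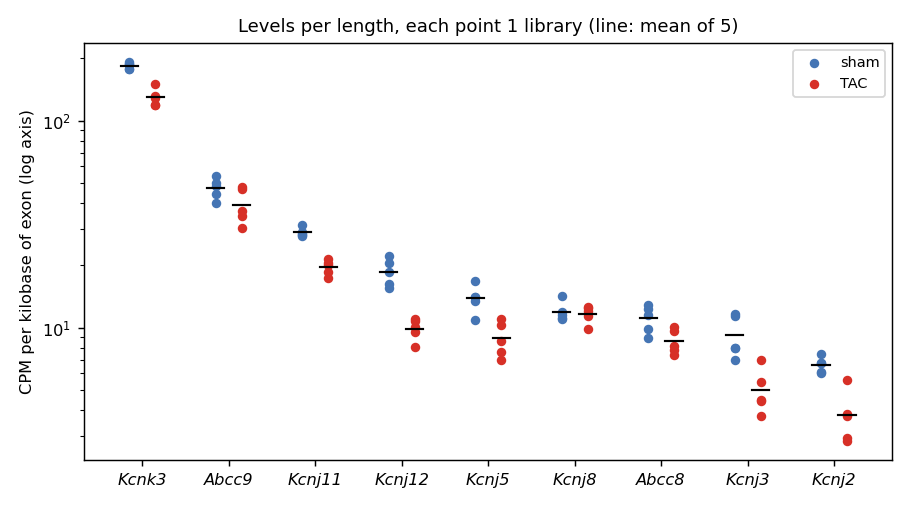
CPM per kilobase of exon (log axis) for each gene in each library, sham in blue and TAC in red, with a line at the mean of 5, ordered by the sham mean. Kcnk3 lies at 177 to 193 in sham, far above Kcnj2 at 6.01 to 7.43.

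Of the 14 cardiomyocyte markers 11 fell, against 17.0% of all tested genes, and 3 (Tnnc1, Actc1 and Mybpc3) did not pass. The 9 genes were set against the summed counts of all 14 in the same library. Markers weigh in this sum by their level. Myh6, which itself fell, weighs most, at 42830 ± 4382 CPM in sham and 31778 ± 6938 CPM in TAC. Kcnj12 was at 32.9, 35.5, 35.5, 44.2 and 39.6 counts per 100000 marker counts in sham and at 25.9, 26.5, 25.9, 25.3 and 25.7 in TAC. The TAC libraries were almost equal on this scale and all lay below sham. Relative to the markers, the TAC level was 0.692 of sham for Kcnj12, 0.707 for Kcnj3 and 0.722 for Kcnj2, and 0.829 for Kcnj5. Kcnj11 was at 0.877 and Kcnk3 at 0.908 of sham, and Abcc8 and Abcc9 at 1.01 and 1.07. Kcnj8 was at 1.26 times sham, from 20.3 to 29.0 counts per 100000 marker counts in sham and 25.5 to 31.3 in TAC. None of the 9 passed after adjustment by exact two-sided permutation test (lowest adjusted p = 0.0571), with 5 at an unadjusted p under 0.05 (Kcnj12, Kcnj2, Kcnj3, Kcnj8 and Kcnj11). By that permutation test Kcnj12 had p = 0.00794, the smallest these divisions can give. Over 9 genes, a gene alone at that p cannot pass, so passing needs other genes with small p beside it. With the geometric mean of the markers in place of their sum, 6 passed: Kcnj2, Kcnj12, Kcnj3, Kcnj11 and Kcnk3 as lower and Kcnj8 as higher (adjusted p between 0.0357 and 0.0476 by exact permutation test). The call on this scale therefore rests on how the markers are combined, while the estimates moved little. On the log2 scale Kcnj2 went from -0.47 to -0.49 and Kcnj8 from 0.34 to 0.32.

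**Figure D5:**
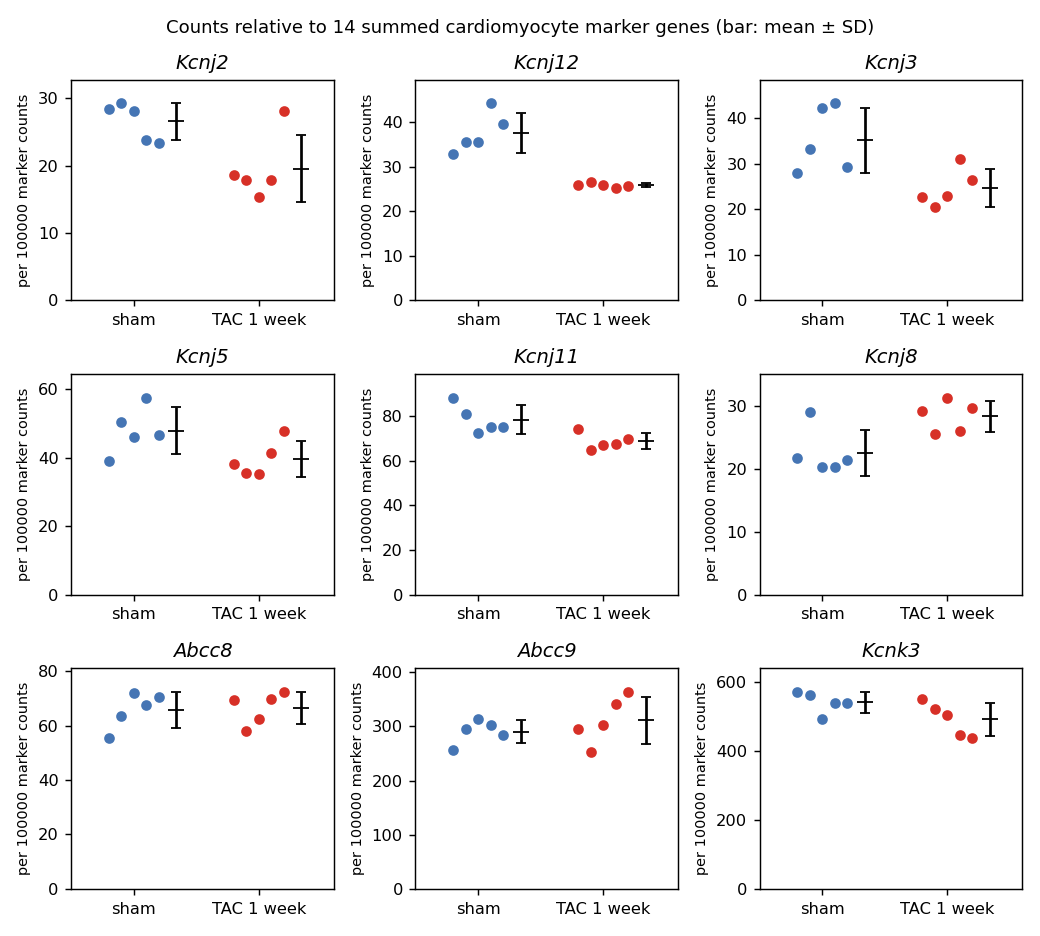
Counts of each gene per 100000 summed counts of 14 cardiomyocyte marker genes (linear axes from 0) in sham (blue) and TAC (red) libraries, with mean ± SD as a bar. Kcnj12 separates the groups (32.9 to 44.2 against 25.3 to 26.5), whereas Abcc8 and Abcc9 overlap.

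Other pores of both families gave few counts. Of 21 further Kcnj and Kcnk genes in the table, 17 had too few counts to be tested. Among the 4 tested, Kcnk2 and Kcnk6 rose, and Kcnj4 and Kcnj15 did not pass, against 18.8% of all tested genes that rose. Kcnk2, which encodes the stretch-sensitive leak channel TREK-1, was at 2.41, 3.29, 5.04, 4.35 and 3.89 CPM in sham and at 6.47, 5.44, 6.99, 5.12 and 6.81 CPM in TAC. All TAC libraries were above all sham libraries, on counts of 23 to 62 reads. Kcnk2 rose by 0.71 ± 0.18 on the log2 scale (edgeR, adjusted p = 0.00893). Kcnk6, another K2P gene, went from 8.26 ± 0.331 to 10.5 ± 1.44 CPM, or 0.35 ± 0.11 on the log2 scale (edgeR, adjusted p = 0.023). Without 1 of sham replicate 2, TAC replicate 2 or TAC replicate 4, only 1 of the 4 rose. Kcnj4, the gene of Kir2.3, was at 3.58 ± 1.89 and 3.65 ± 0.493 CPM. The K2P genes thus moved in both directions.

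Voltage-gated potassium channels also take part in repolarization. There were 6 that fell and 1 that rose among 11 tested, where 17.0% of all tested genes fell and 18.8% rose, and their median was -0.37 on the log2 scale. Those with the smallest adjusted p were Kcnh2 (-0.73 ± 0.11, the pore of the rapid delayed rectifier), Kcnv2 (-1.21 ± 0.25, a modifier subunit), Kcnd3 (-0.43 ± 0.09, a pore of the transient outward current) and Kcna7 (-0.44 ± 0.10), all as log2 fold changes. The gene that rose was Kcnab2, an accessory beta subunit, at 0.77 ± 0.20, and without TAC replicate 1 there were 2 that rose.

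Receptors and G proteins act upstream of the acetylcholine-activated channel. Among 18 tested genes of this list 9 rose and 3 fell, with a median of 0.15 on the log2 scale. Of all tested genes 18.8% rose and 17.0% fell, so the number that fell is near the background. Scaled by library totals alone, 1 fell. Both tested receptors fell: Adora1, the A1 adenosine receptor, went from 41.5 ± 5.07 to 27.7 ± 2.98 CPM (-0.58 ± 0.09 on the log2 scale; edgeR, adjusted p = 0.000549), and Chrm2, the M2 muscarinic receptor, from 38.0 ± 5.30 to 29.7 ± 3.38 CPM (-0.35 ± 0.10; edgeR, adjusted p = 0.0162). Gnb5, a G protein beta subunit that works with RGS proteins, was the third gene to fall. Gnai1, an inhibitory alpha subunit, did not pass, at 3.04 ± 0.545 CPM in sham and 3.04 ± 0.857 CPM in TAC. The inhibitory alpha subunits Gnai2 and Gnai3 and the beta subunit Gnb1 rose, with log2 fold changes of 0.49 ± 0.06, 0.67 ± 0.10 and 0.36 ± 0.05. These G protein genes are expressed in many cell types, among them the macrophages and fibroblasts whose marker lists summed higher in TAC (114 to 143 against 191 to 316 CPM for macrophages, 930 to 1401 against 2903 to 8370 CPM for fibroblasts). Of these lists, 7 of 7 tested macrophage markers and 6 of 8 tested fibroblast markers rose, and their part in the G protein values was not tested.

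Scaffold and trafficking partners hold these channels at the membrane. There were 7 that rose and 5 that fell among 14 tested, beside 18.8% and 17.0% of all tested genes, and their median was 0.15 on the log2 scale. Dlg1, the scaffold SAP97 that binds Kir2 channels, fell by 0.35 ± 0.06 on the log2 scale (edgeR, adjusted p = 0.000547), and Ank3, an ankyrin, fell by 0.31 ± 0.06. Ank2, the ankyrin that holds Kir6.2 at the membrane, went from 219 ± 23.8 to 181 ± 20.8 CPM (-0.27 ± 0.09; edgeR, adjusted p = 0.0318) and was named after its value was seen. Flna, filamin A, and Ywhab, a 14-3-3 protein, rose with log2 fold changes of 0.57 ± 0.07 and 0.39 ± 0.06. The count that fell in this list dropped to 2 or 3 in 9 of the 10 sets that left out 1 library, which is near the background share. With library totals it dropped to 2, where 1159 of all 12001 tested genes fell.

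By a fixed rule, the genes whose log2 CPM ran most like that of Kcnk3 over the 10 libraries were Acot13, Bcl2l13 and Ndufa6 (Pearson r of 0.996, 0.992 and 0.991), among 8740 genes compared. For Kcnj11 they were Crat, Uqcr and Iqsec1 (0.995, 0.994 and 0.992), and for Kcnj2 Gstp1, Mllt6 and 9330129D05Rik (0.962, 0.96 and 0.958). All 9 were lower in TAC by point estimate, with log2 fold changes of -0.26 to -0.59, so the likeness includes the difference between groups, and libraries share depth and scaling.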

How the data were processed

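Read counts per Ensembl gene were deposited as 1 table by the authors, not normalized, for 5 sham and 5 TAC libraries of single-end reads without strand. For sham, TopHat2 2.0.10 with Bowtie2, TopHat without a version, HTSeq and build mm10 are named in the submitters' processing notes. For TAC they name TopHat 1.3.0 with Bowtie, HTSeq and builds mm10 and mm9. The table's header names mm9. How reads were assigned to genes is not given in the sources used here. The row of totals was left out. Over the 20 pairs of libraries within a group, chi-square divided by genes was 2.67 to 24.8, so none was a repeat.

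Counts were fitted over all genes with edgeR 4.0.16 (R 4.3.3, limma 3.58.1; quasi-likelihood, TMM, filterByExpr minimum count 10), group as the only term, Benjamini-Hochberg at 0.05. Ratios used an offset of 0.5 counts and exact permutation tests that enumerate every 5 against 5 division (SciPy 1.17.1). The edgeR procedure was tested on simulated data. Alternatives included DESeq2 1.42.0, other scalings and filters, and leaving out libraries. The labels count mice in their design text but give no animal identifiers, so p-values measure the spread between these samples. Lengths and positions are from GENCODE M21 (GRCm38), matched by symbol, and were not used for counting. Of 50-base windows of each gene's transcripts, none was shared between the 9 genes, and 29.3% of those of Kcnj3 were shared with Gm26794.

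The genes and lists were chosen with earlier results of these data known. Named were all 9 genes, the passing genes among other Kcnj and Kcnk genes, up to 4 of each other list by smallest adjusted p, and the 3 genes most like Kcnj2, Kcnj11 and Kcnk3. Chrm2, Gnb5, Gnai1, Kcnab2, Ank2, the markers named and the other pores that did not pass were named after their values were seen.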

Additional observations from a re-analysis of the deposited data

Results flagged for a closer look

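Of 70 groups of 5 libraries examined, 9 held a library whose gap to the next was over 0.71 of the whole range, a limit that chance passes in about 1 group in 20. TAC replicate 1, which did not match its female label, was far above the other TAC libraries in 3 pores with few counts: Kcnj14 (5.66 CPM against 0.680 to 1.76), Kcnj15 (4.28 CPM against 1.25 to 1.76) and Kcnk13 (2.77 CPM against 0.439 to 1.08). TAC replicate 5 was the high one for Kcnj2 on 3 scales: the ratio to Kcnj12 was 1.10 against 0.591 to 0.719, the ratio to Kcnk3 was 0.0642 against 0.0303 to 0.0399, and the level per 100000 cardiomyocyte marker counts was 28.1 against 15.3 to 18.6. Sham replicate 2 had 29.0 Kcnj8 counts per 100000 cardiomyocyte marker counts against 20.3 to 21.8 in the other sham libraries, and the lowest sham level of Kcnk6, 7.68 CPM against 8.28 to 8.47. Sham replicate 3 had the lowest sham level of Kcnk5, at 0.258 CPM against 1.03 to 1.34, which is 2 reads.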

How the results depend on the processing

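Kcnj2, Kcnj12, Kcnj3, Kcnj5, Kcnj11 and Kcnk3 kept direction and call under all 18 alternatives (other scaling, tools, filters, replicate block and each library left out). The number of the 9 genes that fell was 6 to 8 over the sets without 1 library, 6 with library totals and 8 with the replicate block, where Abcc9 passed (adjusted p = 0.0273 by edgeR). Replicate numbers gave no sign of pairing the libraries, though so few values cannot exclude it. Correlations of same-numbered deviations ran from -0.11 to 0.28, and those of differently numbered ones from -0.24 to 0.31. Library totals moved the middle of all tested genes to 0.11 (log2), and 3257 genes were then higher and 1159 lower in place of 2251 and 2040. With library totals Kcnj8 turned to 0.066, 1 receptor or G protein gene fell and 2 partner genes fell. Without 1 library, the Kcnj8 value ranged from -0.071 to 0.033, the log2 ratio difference of Kcnj2 to Kcnj12 from -0.080 to 0.143 and that of Abcc8 relative to cardiomyocyte markers from -0.045 to 0.063. Over the same sets 1 to 2 voltage-gated genes and 1 to 2 other pores rose, and 2 to 4 partner genes fell. Without sham replicate 2, TAC replicate 2 or TAC replicate 4, 1 other pore rose. With the geometric mean of the markers, 6 genes passed relative to them, and Abcc8 turned to -0.0014. The causes were not tested. Depth limits the 17 other pores with too few counts.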

Other observations

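Several pores known outside ventricular muscle gave few or no reads at this depth. Kcnk9, the gene of TASK-3, a close relative of TASK-1, was at 0 in all 10 libraries. Kcnj10 and Kcnj16, which encode partner pores of glia and kidney, had means of at most 0.465 and 0.0244 CPM in either group. Kcnj6 and Kcnj9, the other Kir3 genes, which are best known in brain, had means of 0.745 and 0.120 CPM in sham and 1.19 and 0.0744 CPM in TAC.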
